A study of Mus musculus with 10 samples.

Results

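The clustered protocadherin genes of the mouse lie in 3 neighbouring loci on chromosome 18, named alpha, beta and gamma. Members were all genes of GENCODE M1 (mm9) on chromosome 18 whose symbol begins with Pcdha, Pcdhb or Pcdhg followed by a letter or digit. The rule found 25 genes, of which 24 are protein-coding and Pcdhb20 is annotated as a pseudogene, beside 22380 protein-coding genes in the whole annotation. The members had 47 annotated transcription start sites (TSSs), 11 in the alpha, 26 in the beta and 10 in the gamma cluster. On mm9 the clusters span 37089939 to 37347311 (alpha), 37424652 to 37681073 (beta) and 37833989 to 38001527 (gamma), all on the plus strand. The rule used gene names only and no measured value, although it was chosen with earlier results of these data known.

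Protocadherins are cadherin-family adhesion proteins of the cell surface, best known from the nervous system. In the alpha and gamma loci each of many long variable exons has its own promoter and is spliced to a shared set of constant exons, whereas each beta gene is a single long exon with its own promoter. Single neurons are known to use a few of these promoters, chosen with the help of CTCF, cohesin and DNA methylation, and the resulting surface identities serve self-recognition of neurites. The exons that stand last in the alpha and gamma loci, called C-type, are known to be under a different control and to be used broadly in neurons.

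Histone marks were surveyed by ChIP-seq with a spike-in of Drosophila S2 cells (ChIP-Rx) in mCherry+ cells sorted from day 4 embryoid bodies, which are aggregates of differentiating embryonic stem (ES) cells. The WT cells came from the *Scl:mCherry* line, made from J1 ES cells, which carries the mCherry insertion at 1 *Scl* allele and leaves SCL functional. The Delta cells came from the *Scl*Δ/Δ:mCherry line (genotype Scl d/d in the labels), engineered from the former, and both copies of *Scl* lack the basic helix-loop-helix domain. SCL (TAL1) is a transcription factor required to specify blood, and the comparison of WT with Delta asked what its loss does to the marks. Each genotype is 1 cell line grown from a single sorted cell. The label of the strain reads C57Bl/6 X Sv129 in 3 libraries, and the number after Sv goes up by 1 from library to library in the rest. H3K4me3 is a mark of active or poised promoters, and H3K27ac is a mark of active promoters and enhancers. H3K27me3 and H2AK119ub are laid down by the Polycomb complexes PRC2 and PRC1. There was 1 library per mark and genotype and 1 input per genotype, so no difference below has a replicate check and none was tested.

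The 8 peak lists held 70826 peaks, between 2388 (H2AK119ub in Delta) and 16038 (H3K4me3 in WT). Depth cannot be read from such lists and read totals were not used here, and every listed peak had a q-value of 0.05 or less, so that a region without a peak may hold a weaker signal. No scaling to the spike-in is stated for the peak calls, so a change in the level of a mark over the whole genome cannot be read from the lists. Genes of blood and endothelial precursors served as a check of the cells. *Kdr*, *Tal1* and *Lmo2* had H3K4me3 and H3K27me3 at the TSS in both genotypes, *Tal1* and *Lmo2* had H3K27ac in WT and not in Delta, and *Kdr* had no H3K27ac in either. The neuronal genes *Neurod1* and *Snap25* also had H3K4me3 in both genotypes, and like *Kdr* they had no H3K27ac in either. In WT, H3K27ac thus set *Tal1* and *Lmo2* apart from the neuronal genes, and in Delta it did not. H3K27me3 was at *Neurod1* in both genotypes and at *Snap25* in neither, and H2AK119ub was at *Neurod1* in WT. With so few genes, these calls do not identify the cells. The deletion itself cannot be checked from peak positions. In sorted populations, a mark in fewer cells and less of a mark per cell cannot be told apart.

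Throughout, a gene was called for a mark when the nearest peak was at most 2500 bp from 1 of its annotated starts. Of the 25 members, 22 were called for H3K27me3 in WT and 21 in Delta, which is 88.0% (95% Wilson interval 70.0 to 95.8) and 84.0% (65.3 to 93.6), beside 35.2% and 33.1% of all protein-coding genes. For H3K4me3, 4 members were called in each genotype, or 16% (6.40 to 34.7), beside 60.9% and 60.6% of all protein-coding genes. These intervals cover counting error only, and neighbouring members can share a peak. Counted by gene, the members thus held H3K27me3 at most and H3K4me3 at few, with the order of both shares opposite to that over all genes. Since 22 of the 25 members are beta genes, this count stands mainly for the beta cluster. H3K4me3 was near 9 of the 10 annotated gamma starts in both genotypes.

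With all listed peaks, the 4 members with H3K4me3 were the same in both genotypes: Pcdha11 and Pcdhgc5, the gene names under which GENCODE M1 files most of the alpha and gamma variable exons, and Pcdhb1 and Pcdhb22, the first and last gene of the beta cluster. All 4 also had H3K27me3, so that 4 of 25 members were called for both marks in WT and in Delta, beside 32.7% and 30.5% of all protein-coding genes. In a gene with several starts, the marks counted this way need not lie at the same start. The members without H3K27me3 in either genotype were Pcdhb6, Pcdhb8 and Pcdhb9. Pcdhb15 had H3K27me3 in WT and not in Delta, as did 7.03% of protein-coding genes, and no member had it in Delta alone, beside 4.91%. No member had H3K4me3 in 1 genotype alone, beside 1.02% of all protein-coding genes for WT and 0.661% for Delta. With a -log10 q of at least 3, however, H3K4me3 remained at 4 members in WT and at 2 in Delta, since the Delta peaks at Pcdhb1 and Pcdhb22 had a -log10 q of 2.10 and 2.29. At the same limit H3K27me3 was at 18 members in WT and 21 in Delta, the opposite order.

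H2AK119ub was called at Pcdha11 and Pcdhgc5 in WT and at Pcdha11 in Delta, beside 9.58% and 5.16% of protein-coding genes. Pcdhgc5 was thus called in WT alone, as were 5.28% of protein-coding genes, and no member was called in Delta alone, beside 0.853%. H3K27ac was called at no member in WT and at Pcdhgc5 in Delta, beside 20.0% and 23.0%. The shares of all protein-coding genes with H3K27ac in 1 genotype alone were 3.46% for WT and 6.42% for Delta. None of these calls was at a peak over an annotated start, and they are taken up by position below.

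Counted over single starts instead of genes, 40 of the 47 members' starts were within 2500 bp of H3K27me3 in WT and 37 in Delta, beside 29.6% and 27.4% of the starts of protein-coding genes. H3K4me3 was near 15 and 14 of them, beside 56.0% and 55.4%. H2AK119ub was near 5 in WT and 1 in Delta, beside 7.61% and 3.70%, and H3K27ac near 0 and 2, beside 19.1% and 21.6%.

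Because Pcdha11 and Pcdhgc5 each stand for many promoters, the variable exons were also taken one by one. A variable exon was a long open reading frame of the mm9 sequence between 2000 and 3000 bp with at least 3 copies of the calcium-binding motif of cadherin repeats. This gave 58 exons, 14 in alpha, 22 in beta and 22 in gamma, the same numbers as the protocadherin symbols RefSeq (GRCm38.p6) lists for each cluster. Their frames were 2232 to 2652 bp long, and 40 of the 58 began within 500 bp of an annotated start. Alpha and gamma exons are given below by their number in genome order, since the annotation does not name them singly, and beta exons by their gene. Gamma exons 1 and 2 lie upstream of the annotated gamma gene.

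**Figure D1:**
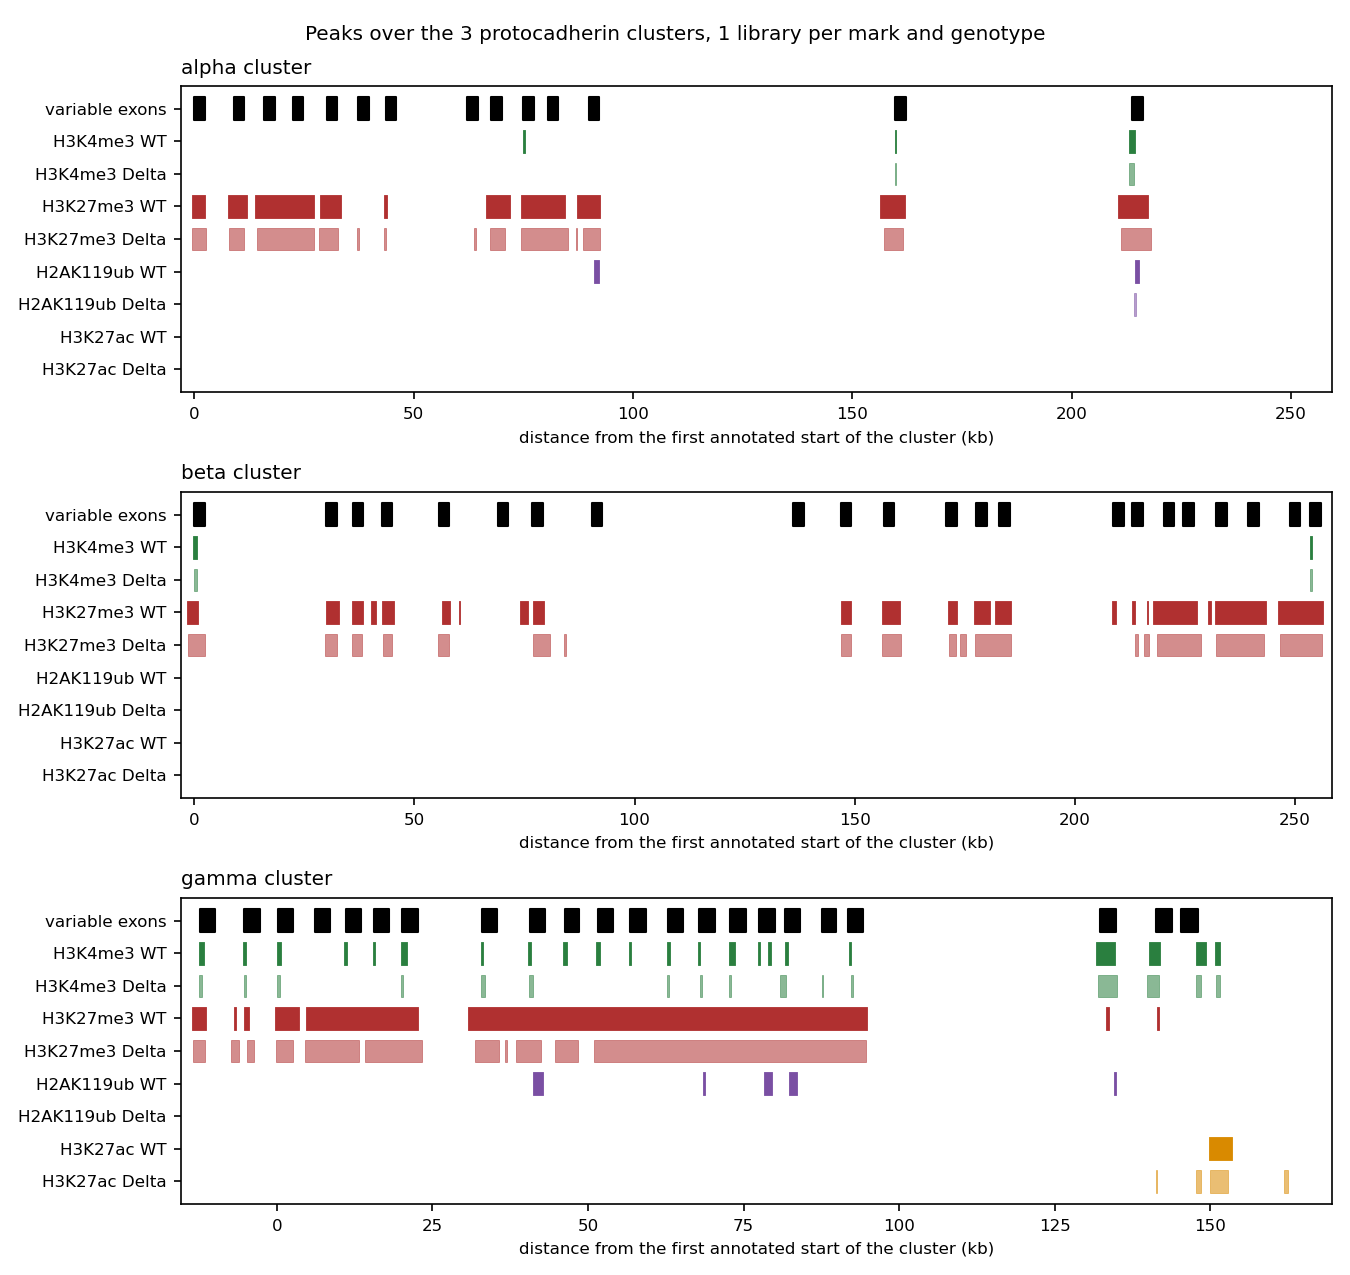
Peaks of the 8 lists along the alpha, beta and gamma clusters, in kb from the first annotated start of each (x axis), with the variable exons as black blocks in the top row and 1 row per library below, WT in full and Delta in lighter colour. H3K27me3 covers most exons of all 3 clusters up to gamma exon 19, and small H3K4me3 peaks line the gamma exons.

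H3K27me3 lay at 52 of the 58 exon starts in WT and at 51 in Delta, and 49 were shared. With a -log10 q of at least 3 these were 45 and 48. By cluster these were 12 and 14 of 14 alpha exons, 19 and 18 of 22 beta genes, and 21 and 19 of 22 gamma exons. The 2500 bp on each side of an exon start, called its window below, was covered by H3K27me3 to a median of 77.8% in WT and 73.7% in Delta in alpha, 54.8% and 50.2% in beta, and 100% and 83.0% in gamma. The spread within a cluster was wide, since single windows ran from 0% to 100% in each cluster in WT.

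The peaks followed the exons. In the alpha cluster 78.6% of the bases within variable exons were under H3K27me3 in WT against 14.3% of the other bases, and in Delta 79.0% against 12.4%. In the beta cluster the values were 74.0% against 13% in WT and 75.6% against 13.1% in Delta. In the gamma cluster they were 86.0% against 37.3% in WT and 82.1% against 30.2% in Delta, so that the other bases were covered more in gamma. Exons also lie closer in gamma, where they make up 29.5% of the span, against 13.3% in alpha and 20.6% in beta. The part of this spacing was not tested.

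In alpha, exons 3 to 4 and 10 to 11 each lay under a shared long peak, of 13552 bp (fold enrichment 5.22) and 10101 bp (5.35) in WT and of 13023 bp (6.05) and 10782 bp (5.75) in Delta. Fold enrichment is the ratio of a peak's reads to the local background, which was taken with the input of the same genotype as reference. The least covered alpha exons were 6 to 8. Exon 7 was covered over 10.4% of its window in WT and 9.58% in Delta, and exons 6 and 8 over 0% in WT and 11.3% and 9.88% in Delta. The Delta peaks at exons 6 and 8 were 564 and 494 bp long. Alpha exons 6 to 8 were also the 3 alpha windows with the fewest unique words, 82.0%, 83.1% and 86.3% of the words of 37 bases (the read length) occurring once in the genome, against a median of 90.2% in alpha. Only reads with a single place in the genome were kept by the authors, and the part of sequence uniqueness in these calls was not tested.

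In beta, Pcdhb18 and Pcdhb20 were covered over 100% of their windows in both genotypes, and Pcdhb22 likewise. The long peaks ran over Pcdhb17 and Pcdhb18 (9941 bp in WT and 10045 bp in Delta), from Pcdhb19 to Pcdhb20 (11529 and 10837 bp), and over Pcdhb21 and Pcdhb22 (10064 and 9622 bp). The gene-poor middle of the cluster, from Pcdhb8 to Pcdhb9, held no H3K27me3 at either start. Pcdhb9 had the lowest uniqueness of all 58 windows, 77.5%, whereas Pcdhb6 and Pcdhb8 had 90.5% and 91.1% beside a beta median of 93.0%. The Pcdhb15 peak of WT was 983 bp long with a fold enrichment of 3.49, and covered 19.7% of its window.

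In gamma, H3K27me3 formed the longest domain. A single WT peak of 64082 bp (37864736 to 37928817, fold enrichment 6.36) spanned the starts of 12 exons, gamma 8 to 19, and was number 6 by length of 11345 peaks in its list. In Delta the same stretch held 5 peaks that covered 87.0% of it, of which the longest, 43612 bp (7.02), spanned 9 exon starts and was number 13 of 10881. A second WT peak of 18019 bp over gamma exons 4 to 7 was met in Delta by peaks of 8762 and 9178 bp. Every one of gamma exons 1 to 19 had H3K27me3 in both genotypes, with a median window coverage of 100% in WT and 92.8% in Delta.

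The domain ended behind gamma exon 19. In WT it stopped 608 bp past the end of that exon's frame and in Delta 385 bp past it. No further H3K27me3 peak was listed over the next 37.4 kb in WT and 37.6 kb in Delta, up to gamma exon 20. From there to the end of the cluster, WT had 2 short peaks of 541 and 392 bp with fold enrichments of 2.95 and 3.12, and Delta had none.

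H3K4me3 was unevenly spread over the clusters. It lay at 20 of 22 gamma exon starts in WT and 15 in Delta, at 3 and 2 of 14 in alpha, and at 2 of 22 in beta in both genotypes. Over all 58 exons these were 25 in WT and 19 in Delta, with 18 shared. Over the annotated starts of all protein-coding genes the shares were 56.0% and 55.4%. The WT peaks were short and of moderate enrichment: in the gamma span they had a median length of 542 bp, against 1270 bp over the whole list, and fold enrichments of 2.91 to 6.70 against a median of 6.42. In Delta the gamma median length was 547 bp against 1197 bp, and the fold enrichments were 3.50 to 7.21 against a median of 6.01. Between the first and last member, 21 of 30 H3K4me3 peaks in WT and 15 of 23 in Delta lay over an exon start.

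**Figure D2:**
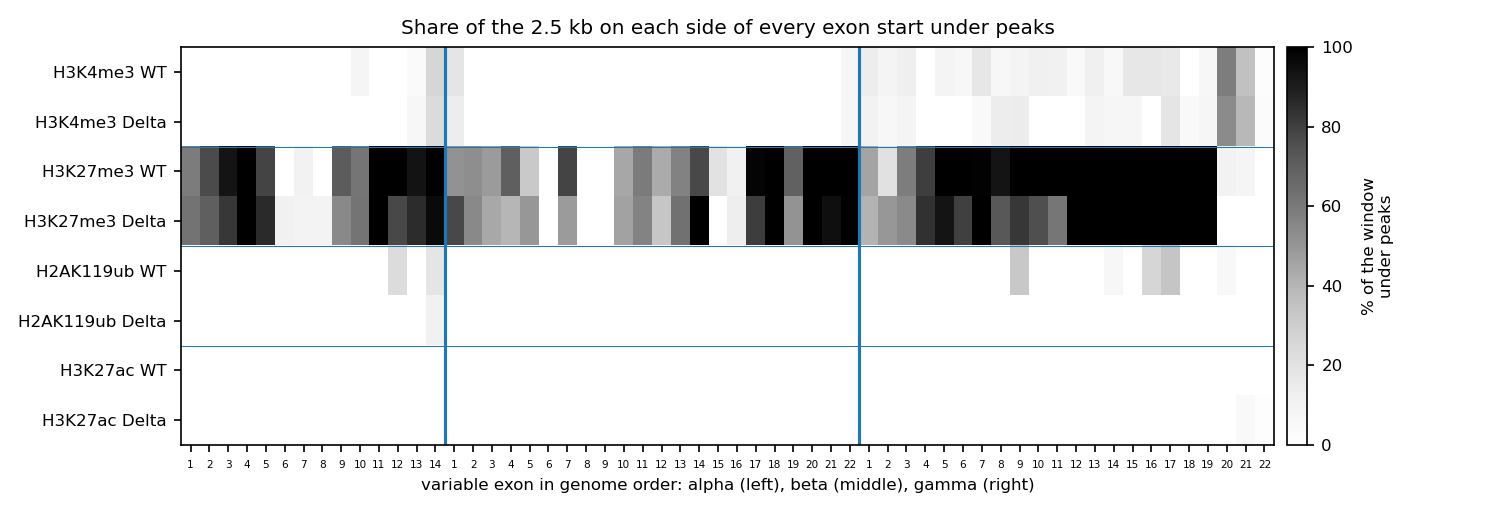
Share of each exon's window under peaks, from 0% (white) to 100% (black), for the 58 variable exons in genome order (x axis) and the 8 libraries (y axis). The H3K27me3 rows are mostly dark, and paler at alpha exons 6 to 8, some beta genes, gamma exons 1 and 2 and the last 3 gamma exons. At these last 3 the H3K4me3 rows reach 58.9% in WT and 53.9% in Delta.

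Among gamma exons 1 to 19, 17 had H3K4me3 in WT and 12 in Delta, all of them also with H3K27me3. The strongest was exon 9 in WT, at a fold enrichment of 6.70 in a peak of 447 bp, with 3.79 in a peak of 739 bp in Delta. Exon 3 went the other way, at 4.11 in WT and 5.12 in Delta. Exon 4 had none in either genotype.

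Of the 58 exons, 7 had H3K4me3 in WT alone and 1 in Delta alone. By gene, where a peak at any start is enough, no member was called in 1 genotype alone. The shares of all protein-coding genes at that level were 1.02% for WT and 0.661% for Delta. No such share was computed per start, so the exon counts have no like background. The 7 were gamma exons 5, 6, 10, 11, 12 and 16 and alpha exon 10. Their WT fold enrichments were 3.81, 4.35, 5.04, 4.57, 3.95 and 5.26 for the gamma exons and 3.54 for alpha exon 10. Gamma exon 18 had a peak of 229 bp (fold enrichment 3.50) in Delta and none in WT. These were short peaks. With the -log10 q raised to at least 3 the count over all 58 exons fell from 25 to 20 in WT and from 19 to 9 in Delta. With equal numbers of top peaks from both lists it was 22 in WT and 19 in Delta, a smaller gap. The WT peaks at the 6 gamma exons passed that limit, at 3.21 to 7.05, while those at alpha exon 10 in WT (2.43) and gamma exon 18 in Delta (1.98) did not. Exons 6, 10 and 12 had uniqueness of 88.9%, 89.0% and 88.3%, and exons 5, 11 and 16 of 98.5%, 96.0% and 95.1%, beside a gamma median of 97.2%. Exons 4 and 18, without H3K4me3 in WT, had 88.9% and 84.9%. The part of uniqueness in these calls was not tested.

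The last exons of the gamma and alpha clusters stood apart from their neighbours and from each other. At gamma exon 20 (37966202 to 37968817) the H3K4me3 peak was 2944 bp long in WT (fold enrichment 5.62, covering 58.9% of the window) and 2990 bp in Delta (7.21, 53.9%). At gamma exon 21 it was 1764 bp in WT (5.14, 35.3%) and 1945 bp in Delta (5.23, 38.9%). These were the broadest H3K4me3 peaks of the 3 clusters, longer than 93.4% and 70.4% of the WT list and 95.5% and 80.0% of the Delta list. H3K27me3 covered only 10.8% and 7.84% of the 2 windows in WT and none in Delta. Gamma exon 22 was called for H3K4me3 only through a peak 2400 bp downstream in WT and 2360 bp in Delta.

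Alpha exons 13 and 14, which lie 67.5 kb and 51.4 kb behind the exon before them, held both marks in both genotypes. At alpha exon 14 (37303623 to 37306196) the H3K4me3 peak was 1319 bp in WT (fold enrichment 5.13) and 1189 bp in Delta (5.50), and the H3K27me3 peak on it was 6969 bp (7.20) in WT and 6643 bp (7.42) in Delta. At alpha exon 13 H3K4me3 was weaker, 203 bp (2.89) in WT and 330 bp (4.03) in Delta, on H3K27me3 of 5585 bp (5.71) and 4438 bp (7.62). The other 12 alpha exons had H3K4me3 at 1 exon in WT and at none in Delta.

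**Figure D3:**
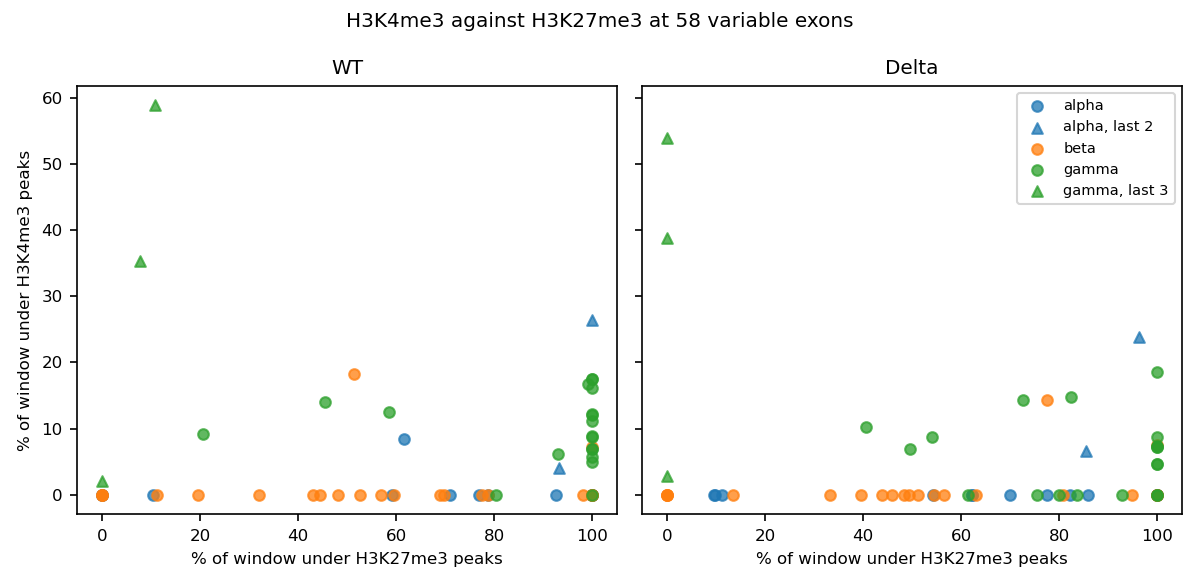
Share of the window under H3K4me3 (y axis, %) against H3K27me3 (x axis, %) at the 58 variable exons in WT (left) and Delta (right), 1 point per exon, coloured by cluster, with triangles for the last 2 alpha and last 3 gamma exons. Gamma exons 20 and 21 sit at the upper left, most other gamma exons at the right with some H3K4me3, and most beta genes on the x axis.

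By combination, 24 of the 58 exons had both marks in WT, 28 had H3K27me3 alone, 1 had H3K4me3 alone and 5 had neither. In Delta these were 16, 35, 3 and 4. Counted by gene, where the marks may lie at different starts, both were called at 32.7% of all protein-coding genes in WT and 30.5% in Delta. Most exons with both marks were gamma exons, 19 of the 24 in WT and 12 of the 16 in Delta. In beta, H3K27me3 alone was the commonest state, at 17 of 22 genes in WT and 16 in Delta.

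The clusters also differed in sequence around the exon starts. The ratio of observed to expected CpG dinucleotides in the 500 bp on each side had a median of 0.727 in alpha, 0.392 in beta and 0.644 in gamma. It ranged from 0.153 at Pcdhb9 to 0.888 at gamma exon 17, and was 0.554 at Pcdhb1, the highest in beta. Exons with H3K4me3 in WT had a median of 0.658 and those without 0.443, and a median window uniqueness of 97.6% against 91.0%. The alpha exons did not follow this order, with the highest median CpG ratio and little H3K4me3. Of the 25 exons with H3K4me3 in WT, 20 were gamma exons, and of the 33 without, 20 were beta genes. The pooled contrast therefore overlaps that between the clusters. The CpG ratios and uniqueness values are descriptions of the reference, and their part in the calls was not tested.

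H2AK119ub peaks were few, and none touched an exon start. In WT there were 7, at alpha exons 12 and 14 and gamma exons 9, 14, 16, 17 and 20, and in Delta there was 1, at alpha exon 14. All had their midpoint inside a variable exon, and they began 481 to 2232 bp downstream of its start. In WT 6 of the 7 lay wholly on H3K27me3, and the Delta peak did too. The longest was at gamma exon 9 in WT, 1609 bp with a fold enrichment of 3.71. The WT peak at alpha exon 14 measured 932 bp (3.66) and the Delta peak 559 bp (4.00). The -log10 q of the 8 peaks was 1.44 to 2.34, so that all were weak calls, and none was left with a -log10 q of at least 3.

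Within the 3 clusters, H3K27ac peaks were listed only at the 3′ end of gamma. A WT peak of 3665 bp (fold enrichment 4.10) lay 4412 bp downstream of the start of gamma exon 22, and a Delta peak of 2988 bp (5.11) lay 4572 bp downstream. Their -log10 q was 2.66 in WT and 4.10 in Delta, so that only the Delta peak reached a limit of 3. By length these peaks were number 8 of 4571 in WT and number 15 of 5269 in Delta, against list medians of 541 and 524 bp. Both covered the whole of the first constant exon of the gamma gene (chromosome 18, 37984675 to 37984733), and a short H3K4me3 peak lay just behind that exon, of 781 bp in WT and 657 bp in Delta. Delta had 3 further H3K27ac peaks of 221, 722 and 688 bp in the gamma cluster, the first 34 bp downstream of the start of gamma exon 21 and the second 2410 bp downstream of that of gamma exon 22, which gave the calls at these exons.

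As a share of length, H3K27me3 covered 31.0% of the 681 kb of the 3 clusters in WT and 29% in Delta, beside 1.15% and 1.17% of the genome. H3K4me3 covered 2.62% and 2.01%, beside 0.867% and 0.787%. H2AK119ub covered 1.02% and 0.0820%, beside 0.198% and 0.107%, and H3K27ac 0.538% and 0.678%, beside 0.117% and 0.130%.

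The ratio of covered length, Delta over WT, was 0.936 for H3K27me3 in the clusters and 1.02 over the genome. For H3K4me3 it was 0.766 in the clusters and 0.908 over the genome, with 0.751 in gamma, 0.781 in alpha and 0.981 in beta. For H2AK119ub it was 0.0801, from 6978 bp in WT and 559 bp in Delta, against 0.540 over the genome, and for H3K27ac 1.26 against 1.11. With the same number of top peaks taken from both lists, the cluster ratio was 0.869 for H3K4me3 and 0.937 for H3K27me3. At that setting it was 0.353 for H2AK119ub and 1.00 for H3K27ac. The genome ratios given here are from the full lists, so they are not at the same setting. Each ratio compares 2 libraries, and the difference between clusters and genome was not tested.

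**Figure D4:**
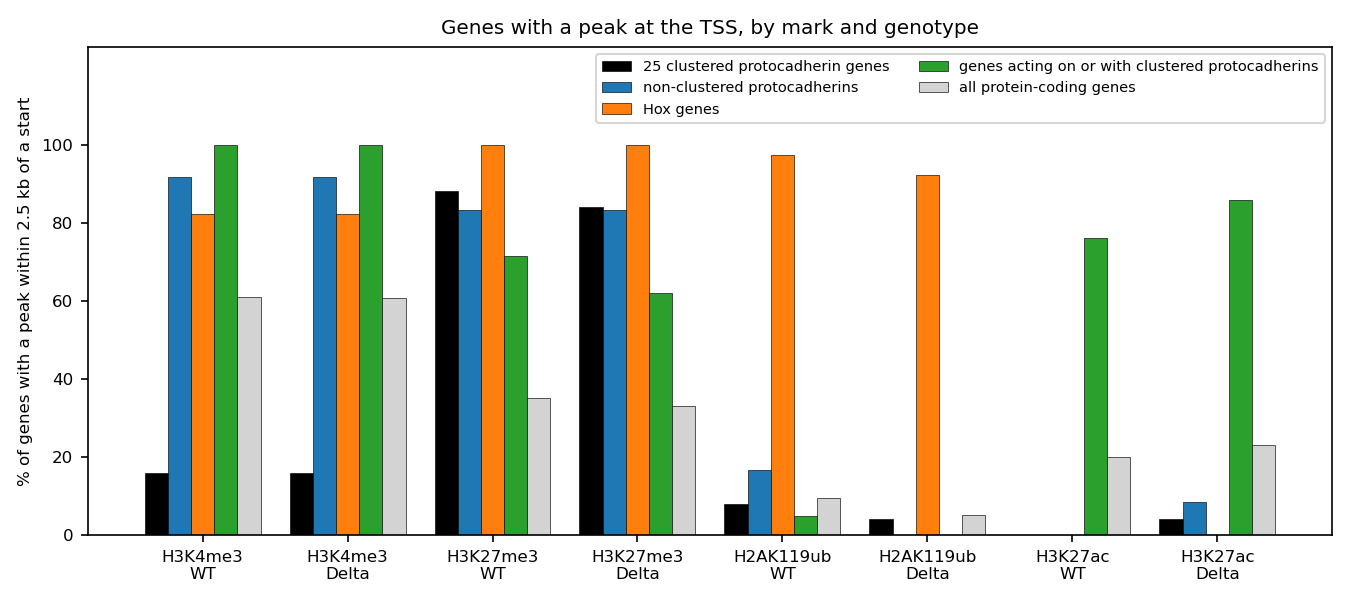
Percent of genes with a peak within 2500 bp of an annotated start (y axis) for each mark and genotype (x axis), in the 25 clustered protocadherin genes, 12 non-clustered protocadherins, 39 Hox genes, 21 genes acting on or with the clustered protocadherins, and all protein-coding genes. The members are high for H3K27me3 and low for H3K4me3, and the Hox genes are the only list high for H2AK119ub, at 97.4% in WT and 92.3% in Delta.

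The non-clustered protocadherins, which are single genes elsewhere in the genome, mostly carried both H3K27me3 and H3K4me3. Of 12, 10 had H3K27me3 in both genotypes and 11 had H3K4me3 in both, the exception being Pcdh12. Pcdh1 and Pcdh8 had H2AK119ub in WT, and Pcdh7 had H3K27ac in Delta.

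The 39 Hox genes, the classical Polycomb targets, all had H3K27me3 in both genotypes, and 32 had H3K4me3 in each. H2AK119ub was at 38 of them in WT and 36 in Delta. Of the bases under H3K27me3 in the 4 Hox clusters, 53.3% were also under H2AK119ub in WT and 54.2% in Delta. In the 3 protocadherin clusters this was 3.12% and 0.283%, and over the genome 13.8% and 8.82%. Within the protocadherin loci it was 3.55% and 1.02% in alpha, 0% in beta in both genotypes, and 5.20% and 0% in gamma. H3K4me3 lay on 5.57% of the H3K27me3 bases of the protocadherin clusters in WT and 3.68% in Delta, beside 23.4% and 20.2% over the genome.

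Genes that act on the clusters or with their proteins differed from the members in H3K4me3 and H3K27ac. All 21 had H3K4me3 in both genotypes, beside 60.9% and 60.6% of all protein-coding genes. H3K27ac was at 16 of the 21 in WT and 18 in Delta, beside 20.0% and 23.0%. Among those with H3K27ac in both genotypes were *Ctcf*, *Rad21*, *Smc1a* and *Smc3*, which encode CTCF and cohesin subunits, *Smchd1* and *Dnmt1*, which act in silencing, *Rest*, a repressor of neuronal genes, and *Adam10*, which cuts protocadherins at the membrane. *Dnmt3a*, a DNA methyltransferase, and *Fyn*, a kinase, had H3K27ac in Delta and not in WT. *Dnmt3a* was also the only gene of the list with H2AK119ub, in WT. H3K27me3 came within 2500 bp of a start of 15 of the 21 genes in WT and of 13 in Delta. These shares, 71.4% and 61.9%, were above the 35.2% and 33.1% of all protein-coding genes, as were those of the members.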

How the data were processed

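ChIP-Rx libraries of 4 marks were available for 2 genotypes as broad peak lists; the 2 inputs have no list and were not analysed here. Per the study's methods, reads were aligned to mm9 with Bowtie, reads with several places and duplicates were removed, and MACS2 (version 2.0.10 in the submitters' processing notes) called broad peaks in each library with the inputs as reference. The deposited lists hold a fold enrichment, which is a ratio, p-values and q-values as −log10, and a score that was not used. All are the authors' values, and none was rescaled.

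Peaks were matched to GENCODE M1 starts (2500 bp) with Python 3.11.15 and numpy 2.4.6. The code made 0 errors on simulated peaks, and bedtools 2.31.1 gave the same count of called starts for all 8 lists. Coordinates are 1-based mm9. Groups came from sample titles. With 1 library per mark and genotype no test was possible. Wilson intervals (95%) cover counting error only.

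Members and comparison lists were chosen with earlier results of these data known. Reading frames were added after the lists were seen, because the annotation does not name the alpha and gamma exons singly. Named were the first and last member of each cluster, those with H3K27ac or H2AK119ub, those whose call differed between genotypes, and in each cluster the 3 with the largest H3K4me3 or H3K27me3 coverage in WT. C-type members, also in that rule, could not be identified by name, and further exons were named after their values were seen. Hoxa3 has several gene IDs, which were joined.

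Alternatives were a distance of 1000 bp, a peak over the start, a −log10 q minimum of 3, a fold minimum of 3, equal numbers of peaks, joining of peaks within 3000 bp the first start of each gene only, starts of protein-coding transcripts only, and each peak given to its nearest gene only.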

Additional observations from a re-analysis of the deposited data

How the results depend on the processing

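Of 122 alternative values, 99 stayed within 1.5 times the reported one, and 23 moved further. None of them is a test. With a −log10 q of at least 3, H3K4me3 in Delta was called at 2 members and 9 exons, and 2 members held both marks in Delta, whereas H2AK119ub was called at 0 members and 0 exons in both genotypes and H3K27ac in Delta at 0 of either. That limit turned the order of the genotypes for H3K27me3, from 22 members in WT and 21 in Delta to 18 and 21, and from 52 and 51 exons to 45 and 48. Asking for a peak over the start left H3K27me3 at 14 members in WT and 13 in Delta, and H2AK119ub (both genotypes) and H3K27ac (Delta) at 0. With the first start of each gene only, H2AK119ub in both genotypes and H3K27ac in Delta were at 0 members. With equal numbers of top peaks, H2AK119ub in WT was at 1 member, as in Delta, and 2 exons, H3K27ac in Delta at 0 of either, and the H2AK119ub covered ratio was 0.353 and that of H3K27ac 1.00. Within 1000 bp, H3K27ac in Delta was at 1 exon. The exon alternatives and a gamma span from its first reading frame were chosen after seeing the data. No ratio could be had for H2AK119ub and H3K27ac with a −log10 q of at least 3, since the WT length was 0. Fewer peaks listed explain lower counts under the stricter settings by construction. Read totals were not used here, and an absent peak is not an absent mark. No paired analysis was possible because there is 1 library per mark and genotype.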

Other observations

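Genes that lie among or beside the clusters but are no protocadherins varied in their marks. *Gm10545*, on the minus strand within the alpha cluster, had H3K27me3 at fold enrichments of 6.71 in WT and 7.22 in Delta and H2AK119ub at 3.59 in WT, with no H3K4me3 or H3K27ac. *Taf7*, which encodes a subunit of the general transcription factor TFIID and lies between the beta and gamma clusters, had H3K4me3 peaks with a −log10 q of 24.8 in WT and 17.2 in Delta and H3K27ac peaks with 6.56 and 2.83, with no H3K27me3. Its neighbour *Slc25a2*, a mitochondrial carrier gene, had no peak of any mark. 3222401L13Rik had H3K4me3 at fold enrichments of 5.91 and 3.96. *Gm6756*, the nearest gene before the alpha cluster, had no peak. *Diap1*, the next gene after the gamma cluster, had H3K4me3 at 9.51 and 6.53, and H3K27me3 in WT only (3.13).

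An H3K4me3 peak of 351 bp in WT and 280 bp in Delta lay between the alpha and beta clusters, 46963 and 47000 bp from the start of Pcdhb1 (fold enrichments 3.47 and 4.28). It was chosen after its values were seen.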
